A study of Bos taurus with 15 samples.

Results

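The genes described here are 8 genes of innate defence and the acute phase, out of 24616 identifiers in the deposited table. They were chosen by identifier, by a rule that used no measured value, although earlier results of these data were known: LTF (ENSBTAG00000001292), S100A8 (ENSBTAG00000012640), S100A9 (ENSBTAG00000006505), S100A12 (ENSBTAG00000012638), HP (ENSBTAG00000006354), CD14 (ENSBTAG00000015032), TLR2 (ENSBTAG00000008008) and TLR4 (ENSBTAG00000006240). The table lists identifiers without symbols, so the pairing of symbol and identifier came with the list of genes and could not be checked against the table. The data were 15 libraries of mammary tissue from 4 non-pregnant, lactating Holstein cows. Each cow was sampled by needle at 0 h, was then given 40 mg of dexamethasone (DEX) once into the muscle, and was sampled again at 12, 24 and 72 h post-DEX. DEX is a synthetic glucocorticoid. All cows received DEX, and a preventive course of ampicillin over the biopsy period. The only tissue without DEX is therefore that of the same cows at 0 h. A different mammary gland of the udder was sampled at each time point, in the same order in all cows, so time post-DEX and gland cannot be told apart. DEX was given in the evening, right after the first biopsy, so only the 12 h biopsy fell in the morning. The 0 h biopsy was also the only one taken before any other biopsy of the udder. Neither time of day nor earlier biopsies can be told apart from time post-DEX. Cow 1 has no library at 72 h and is taken as the animal that the study removed for illness. Cows 2, 3 and 4 have all 4 time points and carry the tests, and the values of cow 1 are given beside them. QuantSeq libraries were used, which read the 3′ end of each transcript, so that the level of a gene does not grow with its length. Between 1804120 and 6228132 reads per library lay on genes, with the fewest in cow 4 at 0 h.

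In the udder, as elsewhere, Toll-like receptors recognise microbial molecules and start the signalling that switches on inflammatory genes. TLR4 responds to the lipopolysaccharide of Gram-negative bacteria, with CD14 as the protein that presents lipopolysaccharide to it, and TLR2 responds to bacterial lipoproteins. Lactoferrin, the product of LTF, is an iron-binding milk protein made by the mammary epithelium. S100A8, S100A9 and S100A12 are calcium-binding proteins stored in large amounts by neutrophils and released in inflammation, and haptoglobin, the product of HP, is a plasma protein that rises in the acute phase response of cattle. Glucocorticoids are known to restrain many inflammatory genes.

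All 8 genes had reads, at very different levels. Averaged over the 15 libraries, LTF had 306 normalized counts (reads scaled to library size, with a further scaling factor of each library), CD14 36.5, TLR2 30.5, TLR4 15.6, S100A8 4.58, S100A12 2.82, S100A9 0.44 and HP 0.261. LTF was above the other 7 genes in every library, since its lowest value was 119 normalized counts and the highest of any other gene was 62.0. The ranges of CD14, TLR2 and TLR4 overlapped one another, as did those of S100A8 and S100A12. S100A9 and HP were so low that 12 and 14 of the 15 libraries held 3 reads or fewer of them. HP, the classical acute phase gene of the list, was thus hardly detected.

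TLR4 was lower at 12 h post-DEX than at 0 h, had a mean close to that of 0 h at 24 h, and had its highest mean at 72 h. At 0 h it had 19.4, 13.4, 16.2 and 17.4 normalized counts in cows 1 to 4. At 12 h the values were 4.79, 6.17, 6.56 and 8.62 in the same order. The highest cow at 12 h was therefore below the lowest cow at 0 h. At 24 h the values were 21.1, 12.3, 12.6 and 20.2, which lay on both sides of the 0 h values, above them in cows 1 and 4 and below them in cows 2 and 3, and above every value at 12 h. At 72 h cows 2, 3 and 4 had 19.97, 23.98 and 31.6, above every value at 0 h. These values rest on 26 to 155 reads per library. In whole tissue, fewer cells with TLR4 and less of its RNA per cell cannot be told apart.

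In cows 2 to 4 the mean of TLR4 was 15.7 ± 2.05 normalized counts at 0 h and 7.12 ± 1.31 at 12 h (mean ± SD, n = 3). The log2 fold change was -1.09 (standard error 0.24, 95% interval -1.59 to -0.59, adjusted p = 0.0119 in limma, with Benjamini-Hochberg adjustment over 13525 genes), and TLR4 was lower in 4 of 4 cows. It was the 1 of the 8 genes that passed the threshold at 12 h, where 3.88% of all genes tested passed it and 1.61% passed it with a lower value. A lower value in each of 4 cows was found for 10.2% of genes. Over all libraries, 5.48% of genes had every value at 12 h below every value at 0 h. Within cows, TLR4 at 12 h stood at 0.246 of its 0 h level in cow 1 (95% exact interval for counting error 0.151 to 0.389), 0.461 in cow 2 (0.284 to 0.732), 0.404 in cow 3 (0.253 to 0.637) and 0.496 in cow 4 (0.304 to 0.819). Each of these intervals lay below 1. The libraries of cow 1, once in the model, brought the log2 fold change to -1.30 (adjusted p = 0.000818 in limma), where 5.26% of genes passed. The call at 12 h needed all 3 cows, because the adjusted p in limma was 0.11 without cow 2, 0.231 without cow 3, 0.0536 without cow 4 and 0.0514 without the shallow 0 h library of cow 4, while the log2 fold change stayed between -1.15 and -1.01.

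The return of TLR4 was tested directly. Between 12 h and 72 h its log2 fold change was 1.74 (standard error 0.24, adjusted p = 2.219e-04 in limma), higher in 3 of 3 cows, as were 14.7% of genes. In that comparison 3.62% of genes passed the threshold and 1.42% passed it with a higher value at 72 h. This call held in 17 of 17 alternatives, including each fit without a cow. From 12 h to 24 h TLR4 was higher in 4 of 4 cows, as were 9.69% of genes, with a log2 fold change of 1.00 (adjusted p = 0.057 in limma), and 0.702% of genes passed the threshold. That step passed the threshold when cow was a fixed term (adjusted p = 0.0126 in limma) and when cow 1 was added (adjusted p = 0.00432 in limma), where 2.34% of genes passed it, and with edgeR, where 3.98% did. At 24 h the log2 fold change against 0 h was -0.087 (95% interval -0.59 to 0.41, adjusted p = 0.965 in limma). At 72 h it was 0.65 above 0 h (95% interval 0.15 to 1.15, adjusted p = 0.643 in limma), higher in 3 of 3 cows. TLR4 at 72 h did not overlap 0 h, as was the case in that direction for 2.68% of genes over all libraries, but 0% of genes passed the adjusted threshold at 72 h in limma in cows 2 to 4. With cow as a fixed term 3 genes passed in limma, 55 (0.407%) in edgeR and 27 in DESeq2, and 2 passed in limma with cow 1 added, none of them among the 8. Between 24 h and 72 h, where 3.56% of genes passed, the log2 fold change of 0.74 had an adjusted p of 0.111 in limma, and of 0.0348 with cow as a fixed term.

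**Figure D1:**
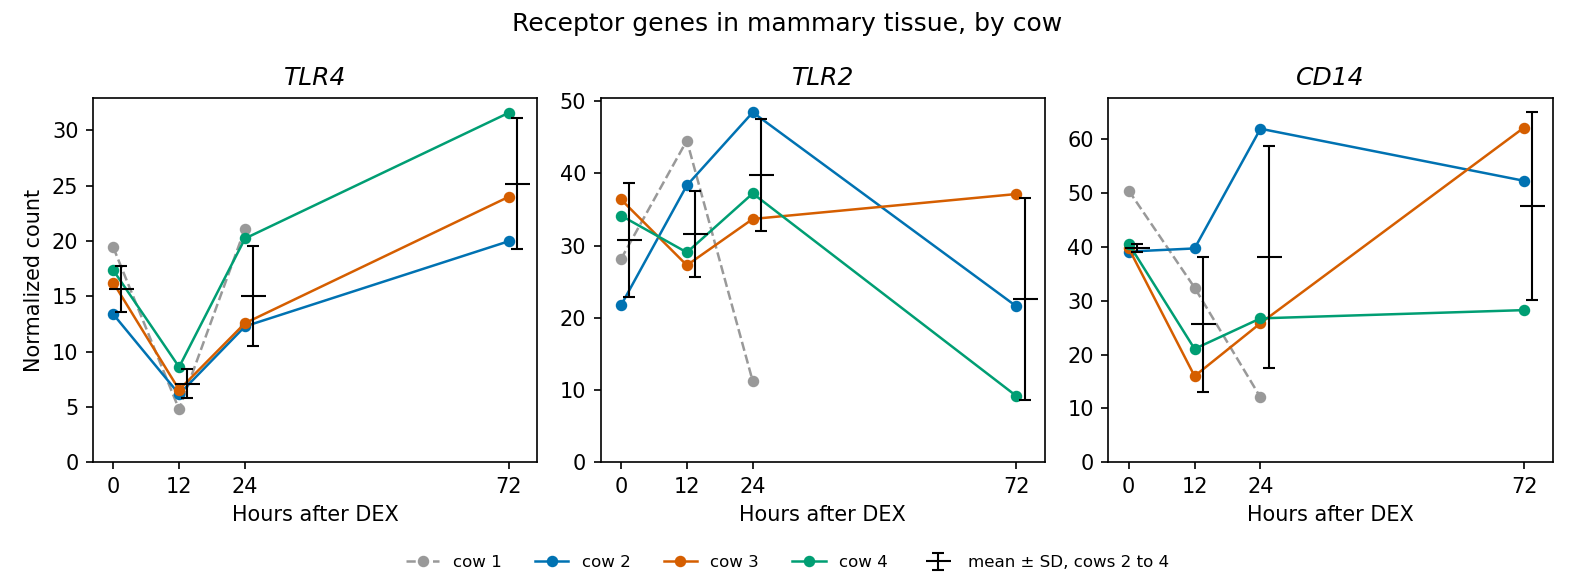
Normalized counts of TLR4, TLR2 and CD14 against hours post-DEX (0, 12, 24 and 72 h), with a line for each cow (cow 1 dashed) and, set slightly to the right, the mean and SD of cows 2 to 4. TLR4 drops from between 13.4 and 19.4 at 0 h to between 4.79 and 8.62 at 12 h in all 4 cows. Over the same step TLR2 rises in cows 1 and 2 and falls in cows 3 and 4. CD14 falls in cows 1, 3 and 4 and is level in cow 2.

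CD14, the co-receptor, had a lower mean at 12 h than at 0 h, with a spread between cows that the test did not exceed. At 0 h it had 50.4, 39.1, 39.7 and 40.5 normalized counts in cows 1 to 4, with cows 2 to 4 close to one another. At 12 h the values were 32.4, 39.6, 16.0 and 21.0, so that cows 1, 3 and 4 were below their 0 h values and cow 2 was level with it. At 24 h they were 12.1, 61.8, 25.8 and 26.7, with cow 2 the highest and cow 1 the lowest. At 72 h cows 2 to 4 had 52.2, 62.0 and 28.2. Against 0 h, cows 2 to 4 gave a log2 fold change of -0.73 at 12 h, with a standard error of 0.34, of -0.18 at 24 h and of 0.18 at 72 h. The adjusted p-values in limma were 0.312, 0.895 and 0.955. With cow as a fixed term in edgeR, a quasi-likelihood test of read counts, CD14 passed the threshold at 12 h (log2 fold change -0.69, adjusted p = 0.0202), as did 6.71% of genes, but not in DESeq2 with the same term (adjusted p = 0.114). CD14 was higher at 72 h than at 12 h in 3 of 3 cows, with a log2 fold change of 0.91 (adjusted p = 0.205 in limma, 1.259e-04 in edgeR, where 6.86% of genes passed, and 0.0142 in DESeq2, both with cow as a fixed term). In limma this change was 1.17 without cow 2, 0.40 without cow 3 and 1.16 without cow 4.

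TLR2, the receptor for lipoproteins, did not pass the threshold in limma in any of the 6 comparisons of time points. It had 28.1, 21.7, 36.4 and 34.2 normalized counts in cows 1 to 4 at 0 h. At 12 h the values were 44.5, 38.3, 27.3 and 29.1. Cows 1 and 2 were thus higher, and cows 3 and 4 lower, than at 0 h. At 24 h TLR2 had 11.2, 48.4, 33.7 and 37.2 normalized counts, and at 72 h it had 21.6, 37.1 and 9.20 in cows 2 to 4. The groups overlapped at all 4 time points. The log2 fold change against 0 h was 0.055 at 12 h (95% interval -0.67 to 0.78), 0.38 at 24 h (-0.34 to 1.11) and -0.61 at 72 h (-1.33 to 0.12), with adjusted p-values in limma of 1, 0.71 and 0.784. The interval at 12 h does not reach the -1.09 of TLR4, but the difference between the genes was not tested. From 24 h to 72 h TLR2 had a log2 fold change of -0.99 (adjusted p = 0.15 in limma). With cow as a fixed term, this step passed the threshold in edgeR (log2 fold change -0.86, adjusted p = 0.00144), as did 7.3% of genes. With the same term it did not pass in DESeq2 (adjusted p = 0.0651) or limma (adjusted p = 0.0847). In limma the log2 fold change from 24 h to 72 h was -0.91 without cow 2, -1.55 without cow 3 and -0.50 without cow 4. The lowest values of TLR2 were those of cow 4 at 72 h, from 44 reads, and of cow 1 at 24 h, from 67 reads.

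In cow 1 at 24 h CD14 was at its lowest of the 15 libraries and TLR2 at its second lowest, while TLR4 was at 21.1 normalized counts, above its value in that cow at 0 h. The ratio of 24 h to 0 h for CD14 in cow 1 was 0.239 (95% exact interval for counting error 0.18 to 0.315), against 1.58 in cow 2 (1.32 to 1.91). Each is a single library per cow and time point, so the spread within a cow is not known.

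**Figure D2:**
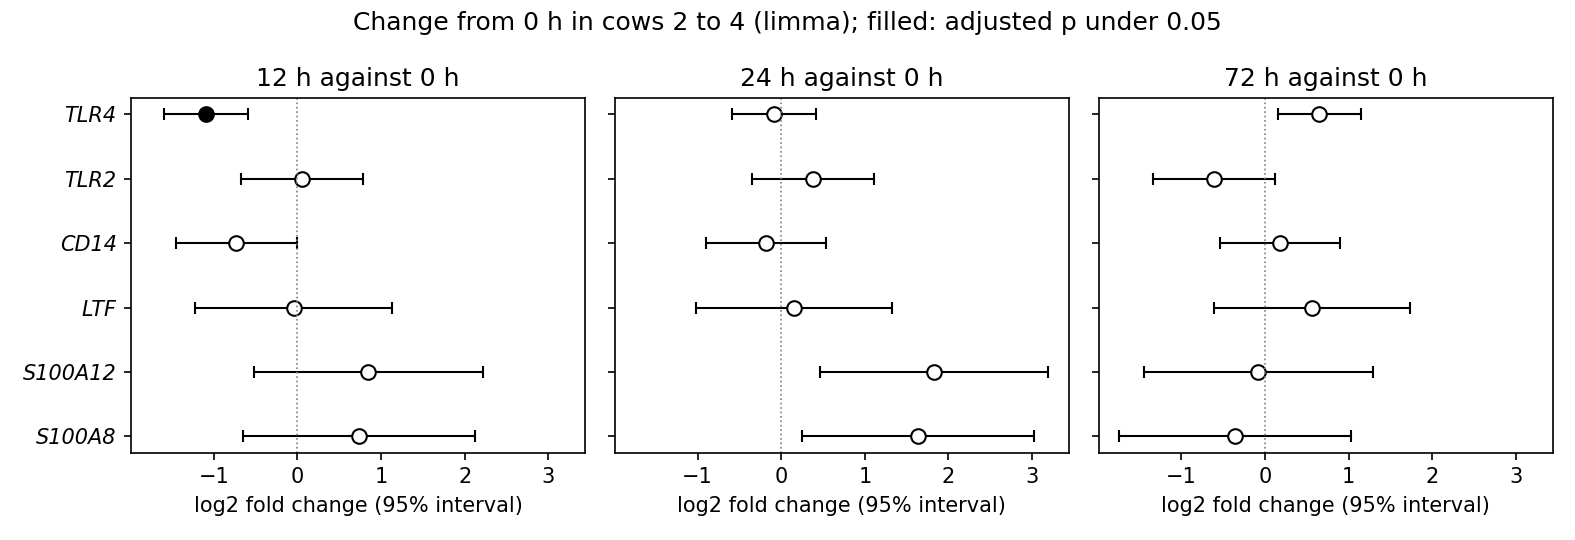
Log2 fold change from 0 h at 12, 24 and 72 h (horizontal axis) for 6 of the genes, in cows 2 to 4, with 95% intervals from limma; filled points passed the threshold of adjusted p under 0.05. TLR4 at 12 h, at -1.09, is the 1 filled point. The intervals of S100A8 and S100A12 at 24 h and of TLR4 at 72 h lie above 0. That of CD14 at 12 h lies below 0. The adjusted p-values of these 4 do not pass.

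LTF, the most abundant of the genes, varied widely between cows at each time point and did not pass the threshold against 0 h. At 0 h it had 176, 143, 550.4 and 209.5 normalized counts in cows 1 to 4. At 12 h the values were 119, 191, 266 and 294. Cow 3 was far above the others at 0 h but below cow 4 at 12 h. At 24 h the values were 133, 136, 524 and 316, and at 72 h cows 2 to 4 had 165, 1074 and 300.2. Cow 3 was the highest at 0, 24 and 72 h, and cow 2 stayed between 136 and 191 throughout. The log2 fold change in cows 2 to 4 was -0.047 at 12 h (95% interval -1.22 to 1.13), 0.15 at 24 h (-1.02 to 1.32) and 0.56 at 72 h (-0.61 to 1.74), with adjusted p-values in limma of 1, 1 and 0.854. LTF was higher at 72 h than at 0 h in 3 of 3 cows, as were 12% of genes in those cows. Between 12 h and 72 h, with cow as a fixed term, LTF passed the threshold in edgeR (log2 fold change 0.57, adjusted p = 0.0163), as did 6.86% of genes. It did not pass in DESeq2 with the same term (0.58, adjusted p = 0.519), or in the main test in limma (0.61, adjusted p = 0.72). With 362 to 6940 reads per library, counting error was small for LTF, and the spread between cows set these intervals. They narrowed with cow as a fixed term in limma, where the standard error was 0.27 instead of 0.56. The interval at 72 h against 0 h was then -0.013 to 1.14 (adjusted p = 0.645 in limma). Within cow 3 the ratio of 72 h to 0 h was 1.95 (95% exact interval for counting error 1.85 to 2.06), and in cow 2 it was 1.16 (1.02 to 1.31).

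**Figure D3:**
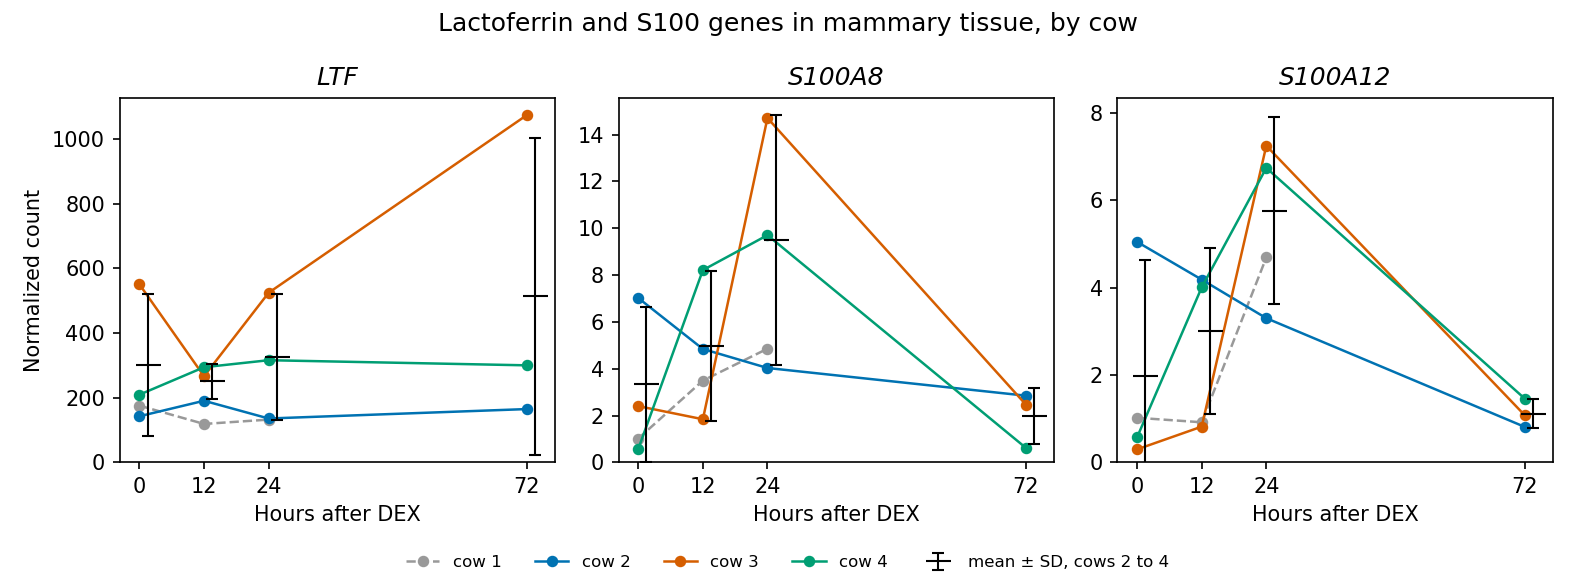
Normalized counts of LTF, S100A8 and S100A12 against hours post-DEX, with a line for each cow (cow 1 dashed) and the mean and SD of cows 2 to 4, whose bars stop at 0. The lines of LTF cross at 12 h, where cow 4 is highest, and cow 3 reaches 1074 at 72 h, and S100A8 and S100A12 are highest at 24 h in cows 1, 3 and 4 and at 0 h in cow 2.

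S100A8 and S100A12 had their highest values at 24 h in 3 of 4 cows, and both were low again at 72 h. S100A8 had 1.02, 7.02, 2.41 and 0.579 normalized counts at 0 h in cows 1 to 4, from 4, 32, 8 and 1 reads. At 12 h it had 3.50, 4.85, 1.85 and 8.22. At 24 h it had 4.86, 4.04, 14.7 and 9.71, from 29, 22, 69 and 36 reads, and at 72 h cows 2 to 4 had 2.85, 2.48 and 0.627. Cows 1, 3 and 4 were thus higher at 24 h than at 0 h, and cow 2, which began highest, was lower. S100A12 had 1.02, 5.05, 0.301 and 0.579 normalized counts at 0 h, from 4, 23, 1 and 1 reads. At 12 h it had 0.92, 4.19, 0.821 and 4.01. At 24 h it had 4.69, 3.30, 7.25 and 6.74, from 28, 18, 34 and 25 reads, and at 72 h cows 2 to 4 had 0.815, 1.08 and 1.46. Every cow at 24 h was above every cow at 72 h for both genes.

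The ratio of 24 h to 0 h for S100A8 was 4.75 in cow 1 (95% exact interval for counting error 1.67 to 18.6), 0.575 in cow 2 (0.318 to 1.02), 6.11 in cow 3 (2.94 to 14.7) and 16.8 in cow 4 (2.82 to 681). For S100A12 it was 4.59 in cow 1 (1.60 to 18.0), 0.654 in cow 2 (0.333 to 1.27), 24.1 in cow 3 (4.04 to 979) and 11.6 in cow 4 (1.91 to 478). The direction in cows 1, 3 and 4 was beyond counting error for both genes, and in cow 2 no direction was resolved. The sizes in cows 3 and 4 are poorly known where a single read lay at 0 h. Cows 2 to 4 gave a log2 fold change at 24 h of 1.63 ± 0.66 (standard error) for S100A8 and 1.83 ± 0.65 for S100A12, with adjusted p-values of 0.264 and 0.191 in limma, and both genes were higher in 2 of 3 cows. Without cow 2 these became 2.81 and 3.01 (adjusted p = 0.162 and 0.0838 in limma). For S100A8 the log2 fold change was 1.26 without cow 3, 0.83 without cow 4 and 0.93 without the shallow 0 h library of cow 4. For S100A12 it was 1.10, 1.36 and 1.49 in the same order. The size at 24 h thus depended on which cow was left out, for both genes. At 24 h 2.31% of all genes passed the threshold in limma and none of the 8 genes did, with 2 of the 8 under an unadjusted p of 0.05 against 13.7% of genes. Both genes passed with edgeR and cow as a fixed term (adjusted p = 0.0151 and 0.0373), as did 4.66% of genes, and none of the 8 passed in DESeq2 with the same term.

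Between 24 h and 72 h the log2 fold change was -1.99 for S100A8 (standard error 0.66, adjusted p = 0.123 in limma) and -1.90 for S100A12 (standard error 0.65, adjusted p = 0.138 in limma), lower at 72 h in 3 of 3 cows, as were 15.1% of genes. The values at 72 h lay below all those at 24 h, including cow 1, as they did for 6.61% of genes. The tools differed on this step when cow was a fixed term. For S100A8 the adjusted p was 9.603e-08 in edgeR, 0.0979 in DESeq2 and 0.0829 in limma. For S100A12 it was 2.883e-05 in edgeR, 0.0199 in DESeq2 and 0.0907 in limma. In edgeR 7.3% of genes passed. S100A8 was also called lower at 72 h than at 12 h in edgeR (log2 fold change -1.38, adjusted p = 0.0112, where 6.86% of genes passed), but not in DESeq2 (adjusted p = 0.469). In limma this change was -1.09, and it was -1.30 without cow 2, -1.81 without cow 3 and -0.17 without cow 4. At 12 h the log2 fold changes against 0 h were 0.74 for S100A8 and 0.85 for S100A12 (adjusted p = 0.682 and 0.612 in limma), and the cows went in different directions. In a biopsy of whole tissue, more cells of a type and more RNA per cell cannot be told apart, and markers of neutrophils or other leukocytes were not analysed here, because the identifiers could not be matched to their symbols.

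S100A8 and S100A12 moved together from library to library. Over the 15 libraries, the Pearson correlation of their log2 values was 0.81 (Spearman 0.82), and it was 0.855 after the mean of each cow was subtracted. These are descriptions over libraries that share 4 cows and, at 0 h, low depth in cow 4. In the RefSeq annotation of a later cattle assembly (ARS-UCD2.0), S100A8, S100A12 and S100A9 are adjacent genes, with no other gene between them. Summed over these 3 genes, the libraries held 2 to 109 reads, with the sum highest in cow 3 at 24 h (23.2 normalized counts) and lowest in cow 4 at 0 h (1.16). The reads of S100A8 outnumbered those of S100A9 in all 15 libraries, with 318 against 32 in total, a comparison of 3′ ends as the annotation draws them. The correlations of S100A8 with the receptors were weaker, at -0.26 with CD14, 0.25 with TLR2 and -0.31 with TLR4. After the mean of each cow was subtracted they were -0.43, 0.20 and -0.28. With CD14, S100A12 was at -0.33 (-0.50 after that subtraction) and S100A9, which had few reads, at -0.74 (-0.73).

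**Figure D4:**
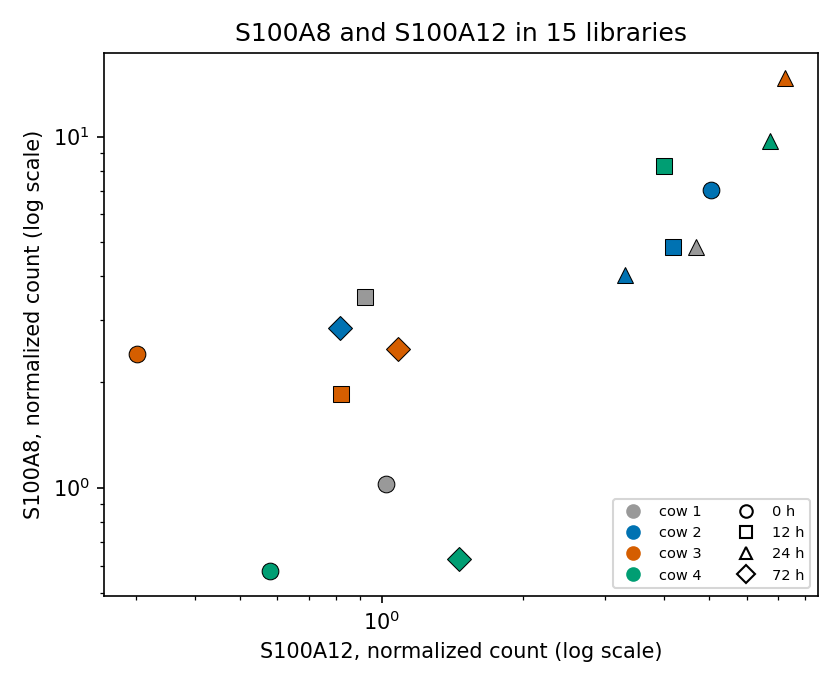
S100A8 against S100A12 in normalized counts, both on log axes, for the 15 libraries, with colour for the cow and shape for the time point. The 24 h libraries sit at the upper right, with S100A12 between 3.30 and 7.25, together with the 0 h library of cow 2 and the 12 h libraries of cows 2 and 4, while the 72 h libraries have S100A12 at 1.46 or less.

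S100A9 and HP gave too few reads for a fold change. S100A9 had 0, 2, 1 and 0 reads in cows 1 to 4 at 0 h and 2, 1, 3 and 10 at 12 h. It had 5, 0, 6 and 2 reads at 24 h, and 0 reads in cows 2 to 4 at 72 h. Reads were thus found mostly at 12 and 24 h, 10 of them in cow 4 at 12 h, where S100A9 reached 2.00 normalized counts. HP had 0, 3, 0 and 1 reads at 0 h, 0 in each of 4 cows at 12 h, 2, 2, 5 and 2 at 24 h, and 0, 1 and 1 in cows 2 to 4 at 72 h. Every library at 24 h held a read of HP and no library at 12 h did, a separation in this direction that 4.05% of genes showed over all libraries. A count of 0 allows a level of as much as 3 reads, or from 0.464 to 1.74 normalized counts depending on the library, so differences of this size were not detectable. Neither gene passed the threshold in limma in any of the 6 comparisons. The smallest adjusted p in cows 2 to 4 was 0.126 in limma, for HP between 12 h and 24 h (unadjusted p = 0.003). It was 0.119 in limma with cow as a fixed term and 0.0537 in limma with cow 1 added.

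Against 0 h, the genes of the list differed in direction. For the 6 genes with enough reads, the median log2 fold change was 0.0044 at 12 h, 0.27 at 24 h and 0.051 at 72 h, beside medians of 0.00054, 0 and 0 over all genes tested. With S100A9 and HP, whose fitted values rest on few reads, the median over all 8 was 0.0044, 0.39 and -0.22. At 12 h 3 of the 6 were higher and 3 lower, and at 24 h 4 were higher and 2 lower. The split became 2 and 4 at 12 h under quantile normalization or totals without the 20 most abundant genes, and 3 and 3 at 24 h under these or with cow 1 added. The median at 24 h was then 0.095, 0.107 and -0.012 in that order. In the main test the range was from -1.09 (TLR4) to 0.85 (S100A12) at 12 h. At 24 h it was from -0.18 (CD14) to 1.83 (S100A12). At 72 h 1 of the 8 genes, TLR4, had an unadjusted p under 0.05 in limma, as did 6.88% of all genes. Under the same test TLR4, CD14 and HP, 3 of the 8, had an unadjusted p under 0.05 at 12 h, against 15.6% of all genes. HP rests there on 4 reads at 0 h and 0 at 12 h in cows 2 to 4, and CD14 had a p of 0.0468 in limma, and of 0.0503 when cow was left out of the model. From 12 h to 24 h, in contrast, the 6 genes were all higher, with a median log2 fold change of 0.72 beside 0 over all genes. Of all genes, 44.3% were higher (by more than 1e-06, so that genes without a change are not counted). Among genes with a mean of 10 normalized counts or more, 50.7% were higher, as were all 4 of the list tested there. Over all 8 genes 7 were higher and 1, S100A9, lower, with a median of 0.72. Of the 6, with cow 1 added 5 were higher and 1 lower, and without cow 3 the split was 4 and 2, with a median of 0.27. The medians against 0 h also moved when a cow was left out, from -0.36 to 0.37 at 12 h, 0.13 to 0.45 at 24 h and -0.30 to 0.38 at 72 h, and without cow 3 all 6 were higher at 24 h. In the main test, limma with cow as a correlated block in cows 2 to 4, none of the 8 passed the threshold from 12 h to 24 h. TLR4 did so in 8 of 17 alternatives.

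The genes most like the leading members were sought among 4820 other genes, those averaging 4 normalized counts or more, by correlation of log2 values over the 15 libraries. ENSBTAG00000010433 was closest to LTF (Pearson r = 0.87), with means of 7.01, 4.61, 5.50 and 11.2 normalized counts at 0, 12, 24 and 72 h over the cows sampled. ENSBTAG00000017845 was closest to CD14 (r = 0.92), with means of 21.5, 13.9, 15.3 and 19.8. Both had their lowest mean at 12 h. The best of so many correlations over 15 libraries from 4 cows is high by selection, and no name can be given to either identifier.

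**Figure D5:**
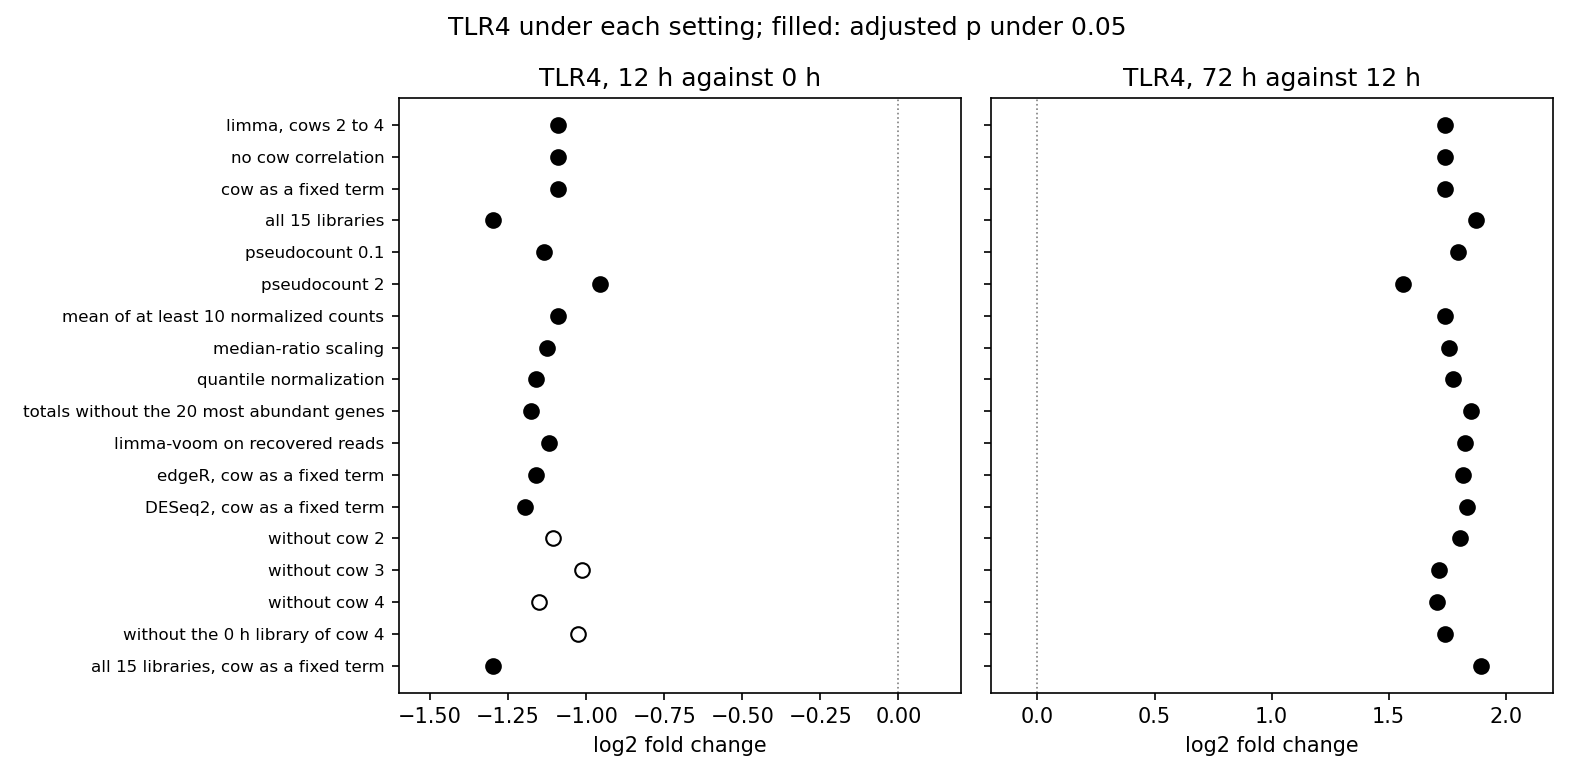
Log2 fold change of TLR4 at 12 h against 0 h (left) and at 72 h against 12 h (right), one row for each way of processing the data; filled points had an adjusted p under 0.05. On the left the values lie between -1.30 and -0.96 and the 4 open points are the fits without a cow or without the 0 h library of cow 4, and on the right all points are filled, between 1.56 and 1.90.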

How the data were processed

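RNA from 15 mammary biopsies was sequenced as QuantSeq 3′ libraries. The authors trimmed reads with HTStream, aligned them with STAR (version 2.6.0c) to UMD3.1 with Ensembl annotation and counted them per gene. The deposited values are normalized counts, a signal equal to CPM times a library's own scaling factor, whose method is not given in the sources used here. Each value was a whole multiple of 1 read (tolerance 0.01, 100% of values), so reads were recovered. Counting was not stated to use strand. Cow and time point were read from the sample labels.

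Differences were tested in R 4.3.3 by limma (version 3.58.1), with a trend, on log2(normalized count + 0.5), which understates changes of low genes, over 12 libraries of cows 2 to 4, with time as the factor and duplicateCorrelation for cow, Benjamini-Hochberg adjustment and a threshold of 0.05. Genes without a read in these libraries were left out. Libraries of a cow come from the same animal, so cow numbers pair the samples. Their deviations from the time point means correlated above 0.1 in 18 of 18 pairs (median 0.276), while the consensus correlation was 0.0179. Intervals and limits from reads cover counting error only, as reads without molecular identifiers are not independent. The 3-read limit is per library.

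The tests were repeated under 15 other settings, including edgeR (version 4.0.16), DESeq2 (version 1.42.0), both with cow as a fixed term, and limma-voom on the reads, and 2 chosen after seeing the data. The scripts were tested on simulated data. The genes, lists and like-pattern rule were chosen with earlier results of these data known. All 8 genes are named, with the 1 gene most like the leading secreted and the leading receptor gene. Lists of Toll-like receptor signalling, secreted defence, glucocorticoid target and cell type marker genes were drawn up by symbol, but 0 identifiers could be matched to a symbol through RefSeq, so they, and the check of the tissue by its markers, were not analysed here.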

Additional observations from a re-analysis of the deposited data

Results flagged for a closer look

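Among the 8 genes at 0, 12 and 24 h, there were 24 groups of 4 libraries. In 3 of them, all at 0 h, a single library stood apart from the rest by Dixon's criterion. Chance would give about 1.2 if the values were normally distributed. The criterion was applied to normalized counts without logs, and the HP group at 12 h, all 0, could not be flagged. The 1.2 is therefore only a rough guide. LTF was high in cow 3, at 550.4 normalized counts from 1830 reads (gap over range 0.836). S100A12 was high in cow 2, at 5.05 normalized counts from 23 reads (gap over range 0.848). CD14 was high in cow 1, at 50.4 normalized counts from 197 reads (gap over range 0.871). The high 0 h values of S100A12 in cow 2 and of LTF in cow 3 enter the main tests against 0 h, in cows 2 to 4. That of CD14 in cow 1 enters only the values over all libraries and the ratios of cow 1. With all 15 libraries the log2 fold change of CD14 was -0.71 at 12 h and -0.64 at 24 h. In cows 2 to 4 it was -0.73 and -0.18. Cow 1 also had the lowest CD14 value of the 15 libraries at 24 h, at 12.1 normalized counts, so these fits differ by more than its 0 h value.

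The change of TLR4 from 0 h differed between 12 h, where it was lower in 4 of 4 cows, and 72 h, where it was higher in 3 of 3 cows. The difference, tested as 72 h against 12 h, was 1.74 on the log2 scale (adjusted p = 2.219e-04 in limma). The gland sampled, the time of day and the number of earlier biopsies also differed between these time points. None of them can be told apart from time post-DEX.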

How the results depend on the processing

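Of 102 counts of genes past the threshold under the alternatives, 80 kept the value given and 22 did not. EdgeR and DESeq2 were run with cow as a fixed term, so both tool and block differ from the fit reported. At 12 h against 0 h, where 3.88% of all genes passed, the count of 1 became 2 with edgeR (6.71%) and 0 without the 0 h library of cow 4 (2.78%, chosen after seeing the data), and it was 0 whichever cow was left out (1.29% to 1.56%). At 24 h against 0 h the count of 0 became 2 with edgeR (4.66%). For 24 h against 12 h it went from 0 to 1 with cow as a fixed term (replicate block), all 15 libraries with or without that block (the former chosen after seeing the data), a pseudocount of 0.1, a mean of 10 normalized counts or more, limma-voom, edgeR and DESeq2, where 1.06% to 7.97% of all genes passed. For 72 h against 12 h it went from 1 to 4 with edgeR (6.86%) and 2 with DESeq2 (5.09%). For 72 h against 24 h it went from 0 to 1 with cow as a fixed term, a mean of 10 or more, totals without the 20 most abundant genes and limma-voom, to 2 with DESeq2 and to 4 with edgeR, where 3.81% to 20.6% of all genes passed. The block in limma changed no other call. With a mean of 10 or more, 4 of the 8 genes were tested, and at 72 h against 24 h the 1 of 4 called stood beside 20.6% of all genes, and with cow as a fixed term the 1 of 8 beside 4.83%. The causes were not tested.

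S100A9 and HP, with few reads, were left out of the following tally. Of 600 log2 fold changes of the other 6 genes under the alternatives, 26 changed sign. None of the 26 was past the threshold in any fit that changed the sign. At 12 h these were LTF with edgeR (0.044) and DESeq2 (0.018), and TLR2 with quantile normalization (-0.022) and totals without the 20 most abundant genes (-0.034). At 24 h they were LTF under the same settings (-0.14 and -0.010) and TLR2 with all 15 libraries (-0.034, and -0.24 against 12 h), with and without the block. At 72 h S100A12 was 0.091 with a pseudocount of 0.1. The other changes of sign came from leaving out a cow. Against 0 h at 12 h, LTF then ranged from -0.31 to 0.45, S100A8 from -0.40 to 1.35 and TLR2 from -0.32 to 0.29. At 24 h LTF ranged from -0.071 to 0.26, CD14 from -0.60 to 0.031 and TLR4 from -0.24 to 0.048. At 72 h S100A8 ranged from -0.57 to 0.049, S100A12 from -0.61 to 0.92, CD14 from -0.051 to 0.53 and TLR2 from -0.92 to 0.010. For 24 h against 12 h LTF ranged from -0.19 to 0.54 and S100A8 from -0.0047 to 1.46. LTF at 72 h against 12 h ranged from -0.090 to 1.02, and CD14 at 72 h against 24 h from -0.082 to 0.66. Totals without the 20 most abundant genes moved the median of all genes by 0.125 at 72 h against 24 h. Depth limits S100A9, HP and the size of the S100 changes.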
